A study of Mus musculus with 18 samples.

Results

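The genes described here make microRNAs and put them to work. They are Drosha and Dgcr8, the enzyme and the RNA-binding partner of the nuclear Microprocessor, Xpo5, the exporter of precursors, Dicer1 and its partner Tarbp2, the Argonaute genes Ago1, Ago2, Ago3 and Ago4, and Tnrc6a, which encodes a GW182 scaffold protein. They were chosen by name, as 10 of the 55450 genes in the deposited table, and 9 of them had enough counts to be tested (21161 genes tested in all).

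In the textbook pathway, Drosha and Dgcr8 cut a hairpin out of a long primary transcript, exportin-5 carries it to the cytoplasm, and Dicer with its partner trims it to a short duplex. An Argonaute protein keeps one strand, pairs with messenger RNA through the bases near the 5′ end called the seed, and recruits a GW182 protein, which brings in the enzymes that shorten poly(A) tails and remove caps. The amount of Dgcr8 is also known to be held in check by Drosha, because the Microprocessor can cut hairpins inside the Dgcr8 messenger RNA itself.

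The data are gene counts from poly(A) RNA sequencing of mouse embryonic fibroblasts (MEF), an ATCC line of connective tissue cells, grown in culture. Cells were transiently transfected with an empty pcDNA3 plasmid, with Col1a1-miR-29b, in which a rat collagen 1a1 promoter drives human miR-29b-1, or with CMV-miR-29b, which differs from it by the viral CMV promoter. Each vector was left without further treatment or given TGF-β, a growth factor that drives collagen synthesis, for 24 h starting 6 h after transfection, with 3 libraries in each of the 6 groups. The 3 libraries of a group came from repeated experiments in 1 cell line, so the tests measure the spread between those repeats. Libraries are named by their letters c, d and e, and in each Col1a1-miR-29b group 1 column carries a letter that matches no sample title and is called unlettered.

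The groups limit what a vector difference can mean. Both miR-29b plasmids also carry EGFP and mRFP1, which the empty plasmid lacks, plasmids were dosed by moles, so their masses differ, and the share of cells that took up a plasmid is not given in the sources used here. An effect of miR-29b and an effect of the rest of the plasmid therefore cannot be told apart in a comparison with empty vector, and in bulk RNA a change in fewer cells and a smaller change in all of them cannot be told apart either. Counts from the Mir29b-1 hairpin gene were 0 in all 6 empty vector libraries. They were 0 to 1 with Col1a1-miR-29b (2 to 6 after TGF-β) and 110 to 309 with CMV-miR-29b (203 to 293 after TGF-β). Acta2, the smooth muscle actin that TGF-β is known to induce, rose by 1.64 on the log2 scale in empty vector cells (adjusted p = 2.11e-06), by 1.53 with Col1a1-miR-29b and by 2.09 with CMV-miR-29b. Total counts were 65898017 to 80332633 per library. Of 10 fibroblast markers, 7 had a median of at least 1 CPM (counts scaled to library size) and Lum was at 0 in every library, while the fibroblast markers summed to 1784 to 5562 CPM. Summed markers of other cell types reached at most 1.09 CPM (epithelial), 3.03 (endothelial), 2.35 (pluripotent), 13.9 (blood, mostly Cd68) and 21.3 (muscle, nearly all Des), the last pair above the fibroblast marker Dcn at 2.07 to 6.41 CPM.

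The microRNA delivered is shown first, because its seed decides which member transcripts could pair with it. These are the mature mouse forms of the miR-29 family in RefSeq (GRCm38.p6), with the seed, bases 2 to 8, in capitals. The family shares 1 seed, AGCACCA, and differs outside it. They lie at chr6:31063025-31063047 (minus strand), chr6:31062673-31062694 (minus strand) and chr1:195037600-195037621 (plus strand).
mmu-miR-29b-3p: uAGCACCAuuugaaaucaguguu
mmu-miR-29a-3p: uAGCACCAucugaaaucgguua
mmu-miR-29c-3p: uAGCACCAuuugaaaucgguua

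A match to this seed reads TGGTGCT in the transcript, or TGGTGCTA where the base opposite the first microRNA base is an A. The 3′ UTR of 1 coding transcript per gene (GENCODE M21, GRCm38) was searched on the transcript's own strand only. Drosha, Dgcr8, Tarbp2, Ago2, Ago4 and Tnrc6a held no match. Dgcr8 and Ago2, which passed a test below, are therefore among the genes without these letters in that window. Xpo5 and Ago1 held 1 match of 7 letters each, Dicer1 held 1 of 8 letters, and Ago3, which has the longest 3′ UTR of the set at 12742 bases, held 1 of 7 and 1 of 8 letters. For scale, 14.6% of the 14483 tested genes with a 3′ UTR model held at least 1 match of 7 letters and 3.15% one of 8. The 30-base windows below show the matches in capitals, at chr17:46243356-46243385 (plus strand, Xpo5), chr12:104690381-104690410 (minus strand, Dicer1), chr4:126435561-126435590 (minus strand, Ago1), chr4:126340047-126340076 and chr4:126334730-126334759 (both minus strand, Ago3).
Xpo5: cctcctcctgccTGGTGCTtggggtctgca
Dicer1: gcattttcccgtTGGTGCTAcgtttatgta
Ago1: gagaggctgggtTGGTGCTctccccttact
Ago3, first match: cttttttgaagaTGGTGCTgtagattttta
Ago3, second match: aattcctttcggTGGTGCTAaagtagttgc

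The members lie on 6 chromosomes, in GRCm38 coordinates. Ago3 (chr4:126331704-126429556), Ago1 (chr4:126435012-126468583) and Ago4 (chr4:126489541-126533472) form a cluster on the minus strand, and Drosha (chr15:12824815-12935291, plus strand), Ago2 (chr15:73095844-73184935, minus strand) and Tarbp2 (chr15:102518192-102523676, plus strand) share chromosome 15. Dgcr8 lies at chr16:18253948-18289246 (minus strand), Xpo5 at chr17:46202782-46243598 (plus strand), Dicer1 at chr12:104687742-104751952 (minus strand) and Tnrc6a at chr7:123123885-123193987 (plus strand, as the deposited table gives it).

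Levels were compared between genes as FPKM, a level scaled for both transcript length and library size, in 16 libraries. Drosha was the highest member, with a median of 38.8 FPKM (35.6 to 40.7), and Xpo5 followed with 25.5 (23.9 to 26.7). Ago2 at 12.9 (11.6 to 13.98) and Ago1 at 12.8 (11.9 to 14.4) were next, then Dgcr8 at 7.05 (5.68 to 7.80) and Tnrc6a at 6.88 (6.26 to 8.14). Dicer1 at 4.30 (3.86 to 4.72), Ago3 at 3.60 (3.36 to 3.96) and Tarbp2 at 3.40 (2.72 to 4.38) were the lowest tested members. The ranges of neighbours overlapped from Ago2 to Ago1, from Dgcr8 to Tnrc6a, and from Dicer1 through Ago3 to Tarbp2, and were separate at the other steps. CPM per kb of the longest transcript, over all 18 libraries, gave the same order except that Ago1 came before Ago2 and Tarbp2 before Ago3. Drosha thus stood well above Dgcr8, its partner in the same complex, in every library.

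**Figure D1:**
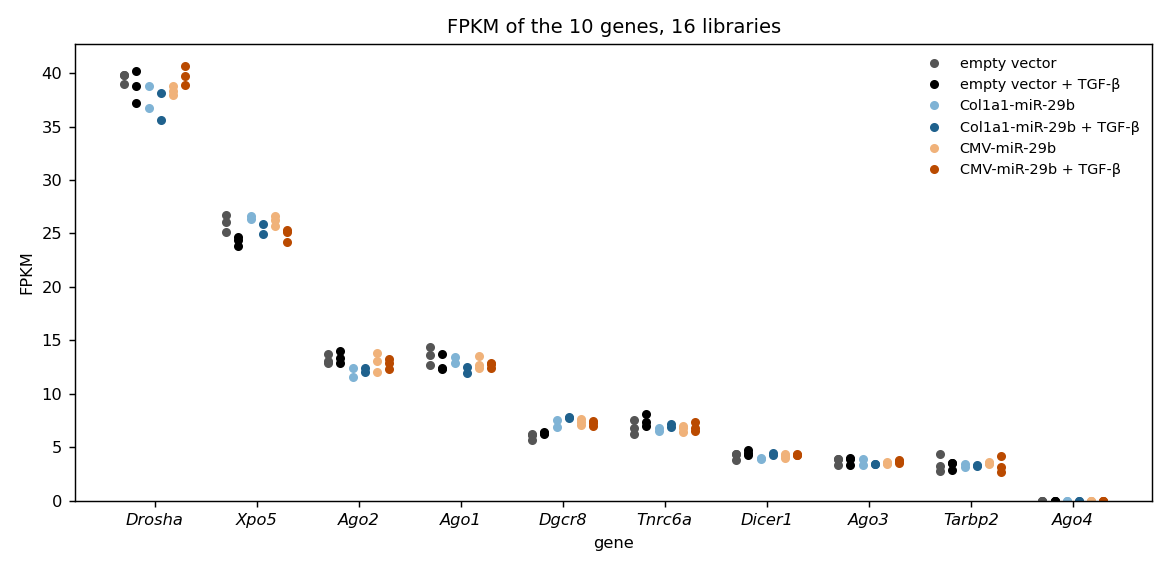
FPKM of the 10 genes (linear axis) in 16 libraries, coloured by group. Drosha and Xpo5 lie at the top, Dicer1, Ago3 and Tarbp2 overlap near the bottom, and Ago4 is listed at or near 0.

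The 4 Argonautes were unequal. As shares of their summed FPKM, Ago1 made 43.95 ± 1.30% and Ago2 43.69 ± 1.40% (SD over 16 libraries), Ago3 made 12.35 ± 0.512%, and Ago4 0.00955 ± 0.0158%. Per kb of the longest transcript, over all 18 libraries, Ago1 made 46.35% and Ago2 41.32%, so that which of the pair is larger depends on the length used. Ago4 had 8 and 9 counts in empty vector libraries c and d, 4 counts in library d of each of 3 other groups, and 0 in the other 13 libraries, among them all 6 CMV-miR-29b libraries. A count of 0 allows up to 3 counts per library by counting error alone. The 5 libraries with counts lay just above that, at 4 to 9, but low counts in these data were often multiples of 4. Ago4 was thus near the limit of detection, and no difference is read from it.

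Within groups, Xpo5 varied least, with a coefficient of variation of 2.18% in CPM, and Drosha was similar at 2.36%. Ago1, Dgcr8, Ago2, Dicer1, Ago3 and Tnrc6a ranged from 3.93% to 6.90%, and Tarbp2, the member with the fewest counts after Ago4, varied by 13.96%. Across all 18 libraries the highest CPM of a member was between 1.12 times the lowest (Xpo5) and 1.60 times (Tarbp2), so every tested member stayed within a narrow band of expression.

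Differences were tested with edgeR's quasi-likelihood test, with Benjamini-Hochberg adjustment over all 21161 genes and a threshold of 0.05 on the adjusted p. Within each setting, without or with TGF-β, both comparisons with empty vector use the same empty vector libraries and so are not independent of each other. With Col1a1-miR-29b, 1 of 9 members passed without TGF-β, where 6.27% of all tested genes did, and 2 of 9 passed with TGF-β, where 12.9% did. With CMV-miR-29b no member passed, either without TGF-β (0.00473% of all genes passed) or with it (0.00945%). There 1 member had an unadjusted p below 0.05 in each setting (5.46% and 12.0% of all genes did), DESeq2 called 1 member and then 0, and limma 0 in both. Counted by groups whose libraries do not overlap, the members gave 3 of 9 and 6 of 9 with Col1a1-miR-29b, against 29.0% and 30.0% of all genes, and 2 of 9 and 3 of 9 with CMV-miR-29b, against 10.6% and 15.9%.

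Dgcr8, the RNA-binding partner in the Microprocessor, rose in Col1a1-miR-29b cells. Its CPM was 49.2, 53.4 and 52.7 in the untreated empty vector libraries c, d and e, and 55.3, 54.8 and 57.2 in those with TGF-β. With Col1a1-miR-29b it was 63.8, 57.8 and 67.3 in c, d and the unlettered library, and 66.6, 66.8 and 65.5 with TGF-β. With CMV-miR-29b it was 66.4, 62.7 and 60.8, and 60.1, 63.3 and 64.4 with TGF-β. All 12 miR-29b vector libraries (57.8 to 67.3) lay above all 6 empty vector libraries (49.2 to 57.2), and no other member was separated in this way in either direction. Across all tested genes, 0.104% (22 of 21161) were separated upwards like this and 0.0803% downwards. The gap between the lowest and the highest library of the 2 sets was small, 57.8 against 57.2 CPM.

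In log2 terms Dgcr8 rose by 0.28 with Col1a1-miR-29b (95% confidence interval 0.16 to 0.40, adjusted p = 0.0113), a 1.22-fold change, and by 0.25 with TGF-β in both groups (0.13 to 0.37, adjusted p = 0.00931), a 1.19-fold change. The call without TGF-β did not hold without empty vector library c (0.24, adjusted p = 0.0629) or without the unlettered library (0.23, adjusted p = 0.0561), and the call with TGF-β held when any single library was left out. With the replicate letters as a block the values were 0.23 (adjusted p = 0.116) and 0.26 (adjusted p = 0.0510). That fit also leaves out both unlettered libraries, so its values do not show the block alone. In CMV-miR-29b cells Dgcr8 differed from empty vector by 0.29 (0.17 to 0.41, 1.22-fold), the 9th smallest p of all genes, but with an adjusted p of 0.304 it did not pass, while DESeq2 gave 0.28 with an adjusted p of 0.00557. With TGF-β the CMV-miR-29b difference was 0.17 (0.05 to 0.29, 1.12-fold, adjusted p = 0.278).

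Between the miR-29b vectors, Dgcr8 differed by 0.01 (CMV-miR-29b minus Col1a1-miR-29b, interval -0.11 to 0.13, adjusted p = 0.974) and by -0.08 with TGF-β (-0.20 to 0.04, adjusted p = 0.541). The intervals hold 0 and leave room for a difference of about the size of the smaller vector effects. Mir29b-1 counts in the same libraries ran from 0 to 6 with Col1a1-miR-29b and from 110 to 309 with CMV-miR-29b. They are poly(A) RNA reads at the hairpin gene and do not measure mature miR-29b. The part of miR-29b in the Dgcr8 level was not tested.

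Drosha, the nuclease of the same complex, passed the test in none of the 4 comparisons with empty vector. Its mean was 261.9 ± 2.15 CPM in untreated empty vector cells, 248.0 ± 8.23 for Col1a1-miR-29b and 254.5 ± 2.89 for CMV-miR-29b (SD, n = 3). The Col1a1-miR-29b difference was -0.08 (-0.15 to -0.00, adjusted p = 0.200) and -0.09 with TGF-β (-0.17 to -0.02, adjusted p = 0.0984), neither of which passed. With CMV-miR-29b it was -0.04 and, with TGF-β, 0.01 (adjusted p = 0.987 and 0.964). Per 100 Drosha counts there were 19.8 ± 0.723 Dgcr8 counts in untreated empty vector cells and 21.2 ± 0.743 with TGF-β. The same ratio was 25.4 ± 1.18 and 26.9 ± 1.09 for Col1a1-miR-29b, and 24.9 ± 0.889 and 23.7 ± 1.12 with CMV-miR-29b (SD, n = 3), in each case without and then with TGF-β. The lowest ratio in a miR-29b vector library, 22.4, was above the highest in an empty vector library, 21.7. The ratio uses the same Dgcr8 counts as above, so this separation is not a further result.

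**Figure D2:**
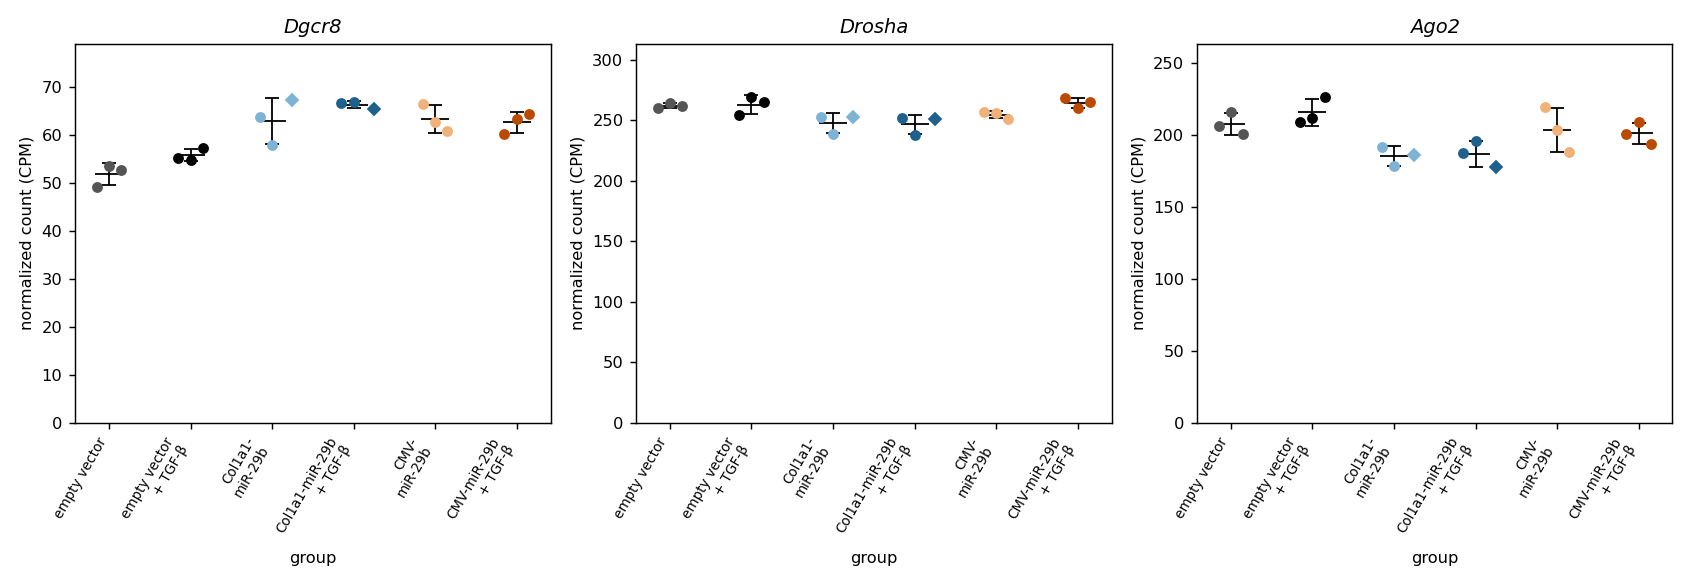
CPM of Dgcr8, Drosha and Ago2 in each of 18 libraries by group, with the mean and SD (n = 3) and diamonds for the unlettered libraries. All 12 miR-29b vector libraries are above the 6 empty vector libraries for Dgcr8, and the Col1a1-miR-29b libraries lie low for Ago2.

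Other rows of the table overlap Dgcr8. Trmt2a, a tRNA methyltransferase gene on the opposite strand, shares 825 bases with it, and its own differences were 0.12 (adjusted p = 0.283) and 0.14 with TGF-β (adjusted p = 0.167) in Col1a1-miR-29b cells, neither passing. For CMV-miR-29b they were 0.05 (adjusted p = 0.996) and 0.19 with TGF-β (adjusted p = 0.249), the latter beside 0.17 for Dgcr8. Gm49776, a predicted gene on the same strand, shares 4374 bases of the Dgcr8 locus and had 0 counts outside CMV-miR-29b cells with TGF-β, where it reached 32. The library kit keeps strand, but whether counting used it is not given in the sources used here, so reads from the shared bases cannot be assigned. The microRNA gene Mir1306, known to lie within Dgcr8, had exactly 1 count in every library. Its mature forms, shown because they come from the Dgcr8 transcript and do not share the miR-29 seed, lie at chr16:18284248-18284268 and chr16:18284288-18284310 (minus strand), with bases 2 to 8 in capitals.
mmu-miR-1306-3p: aCGUUGGCucugguggugaug
mmu-miR-1306-5p: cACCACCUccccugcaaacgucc

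Xpo5, the exporter, was the steadiest member. Its 18 libraries ran from 184.7 to 206.4 CPM, and its differences from empty vector were 0.01 and 0.03 for Col1a1-miR-29b and 0.01 and 0.00 for CMV-miR-29b, without and with TGF-β. The interval of the largest, -0.04 to 0.10, ends below the whole interval of Dgcr8 in the same comparison. Dicer1, the cytoplasmic nuclease, ranged from 72.3 to 91.2 CPM and differed by -0.04 and -0.13 with Col1a1-miR-29b (adjusted p = 0.833 and 0.257), and for CMV-miR-29b by -0.00 and -0.10 (adjusted p = 1 and 0.599). Its highest library, 91.2 CPM, was empty vector with TGF-β. Tarbp2, the Dicer partner, ranged from 13.9 to 22.1 CPM with all groups overlapping empty vector, and its intervals, such as -0.43 to 0.21 for Col1a1-miR-29b without TGF-β, were too wide to show a change of the size of Dgcr8's.

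Ago2, the Argonaute that can cut its target, fell in Col1a1-miR-29b cells given TGF-β. Its CPM in TGF-β-treated empty vector libraries c, d and e was 208.8, 211.3 and 226.2, and in TGF-β-treated Col1a1-miR-29b libraries c, d and unlettered 187.4, 195.6 and 177.5. Without TGF-β it was 206.3, 215.6 and 200.5 with empty vector and 191.4, 178.0 and 185.8 with Col1a1-miR-29b. With CMV-miR-29b it was 218.9, 203.0 and 187.7, and 200.4, 208.6 and 193.5 with TGF-β. In each setting the Col1a1-miR-29b libraries lay below those with empty vector. Groups did not overlap, in either direction, for 29.0% of all genes there without TGF-β and 30.0% with it. The CMV-miR-29b libraries overlapped empty vector without TGF-β. With TGF-β they lay just below it (highest 208.6 against lowest 208.8 CPM), where 15.9% of all genes did not overlap.

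The Ago2 difference with TGF-β was -0.21 (-0.33 to -0.09, 0.867-fold, adjusted p = 0.0256). It no longer passed without Col1a1-miR-29b library c (-0.21, adjusted p = 0.0769), without the unlettered library (-0.18, adjusted p = 0.0978) or without empty vector library e (-0.17, adjusted p = 0.146), all of them TGF-β-treated, nor with the replicate block (-0.19, adjusted p = 0.125). Adding offsets for transcript length and GC content, a choice made after seeing the data, turned it to 0.02 (adjusted p = 0.783). Without TGF-β the difference was -0.17 (-0.29 to -0.04, adjusted p = 0.0964), which did not pass in edgeR, while DESeq2 gave -0.18 with an adjusted p of 0.0402 and the offsets -0.02 (adjusted p = 0.817). CMV-miR-29b gave -0.03 and, with TGF-β, -0.10 (adjusted p = 1 and 0.502). Chrac1, on the opposite strand, shares 1711 bases with Ago2 and gave -0.07 and 0.02 with Col1a1-miR-29b, neither passing.

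The other Argonautes and Tnrc6a lay on the same side as Ago2, without passing, in the fit without offsets. With Col1a1-miR-29b and TGF-β the differences were -0.11 for Ago1 (adjusted p = 0.170), -0.17 for Ago3 (adjusted p = 0.124) and -0.17 for Tnrc6a (adjusted p = 0.167). Ago1 ranged over 108.7 to 113.0 CPM in these libraries against 115.8 to 126.1 with empty vector. Tnrc6a ranged over 91.0 to 102.4 against 103.1 to 119.3. Neither overlapped, in a comparison where 30.0% of all genes did not overlap in either direction. Ago3 overlapped through empty vector library c (64.2 CPM), and without that library its difference was -0.25 (adjusted p = 0.0422). In CMV-miR-29b cells with TGF-β the same genes gave -0.05, -0.05 and -0.15, none of which passed. Without TGF-β the differences of Ago1, Ago3 and Tnrc6a were -0.06, -0.04 and -0.05 for Col1a1-miR-29b, and -0.07, -0.08 and -0.02 for CMV-miR-29b.

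Transcript length runs along with these values. Ago3 (15595 bases), Ago2 (13800), Dicer1 (9851), Tnrc6a (8183) and Ago1 (7227) have the longest transcripts of the tested members, and Dgcr8 (4320), Drosha (4570), Xpo5 (5081) and Tarbp2 (2732) the shortest. With offsets for length and GC content in Col1a1-miR-29b cells with TGF-β, Ago1, Ago2, Ago3 and Tnrc6a moved to 0.04, 0.02, 0.09 and 0.02, and the number of tested members above 0 went from 2 to 7. The member median went from -0.11 to 0.04, where the median of all genes was 0.02 without offsets. Dgcr8 kept its values, 0.30 without and 0.30 with TGF-β (adjusted p = 0.00584 and 0.00360), and Xpo5, with 0.11 (adjusted p = 0.0254), took the place of Ago2 among the 2 members that passed. Whether length and GC content account for the lower Argonaute and Tnrc6a values was not tested beyond this.

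**Figure D3:**
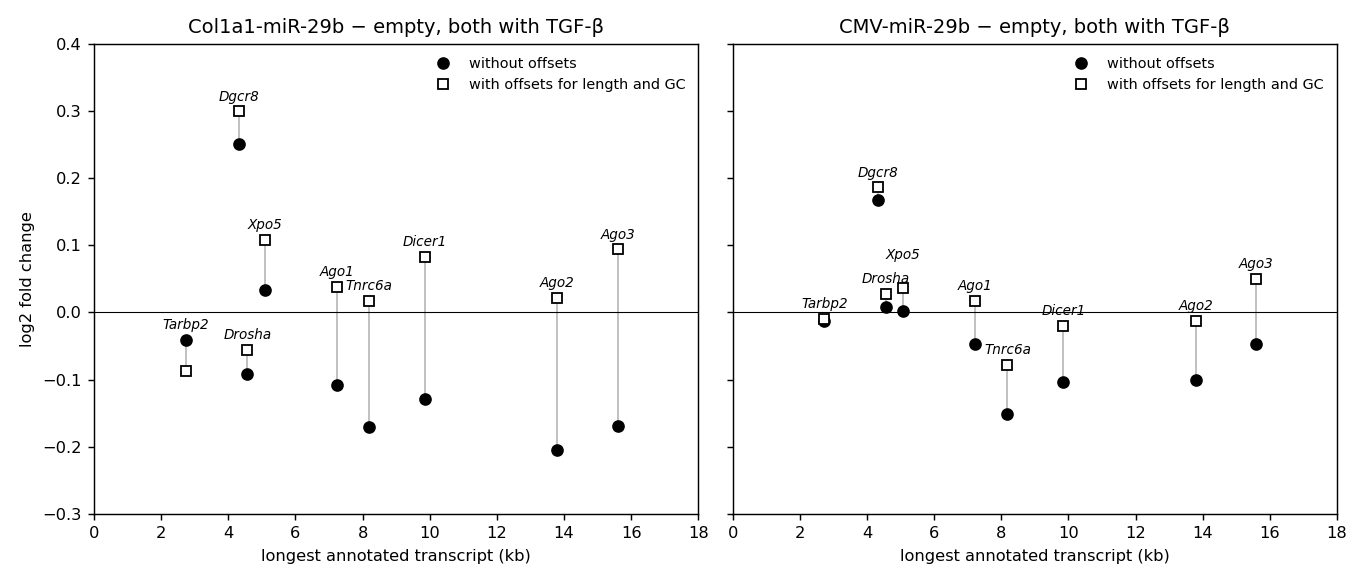
Log2 difference of each tested member from empty vector, with TGF-β, against the length of its longest transcript in kb, for Col1a1-miR-29b and CMV-miR-29b, without and with offsets for length and GC content. With Col1a1-miR-29b the points of Ago1, Tnrc6a, Dicer1, Ago2 and Ago3 lie below 0 without offsets and above 0 with them, while Dgcr8 stays between 0.25 and 0.30.

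**Figure D4:**
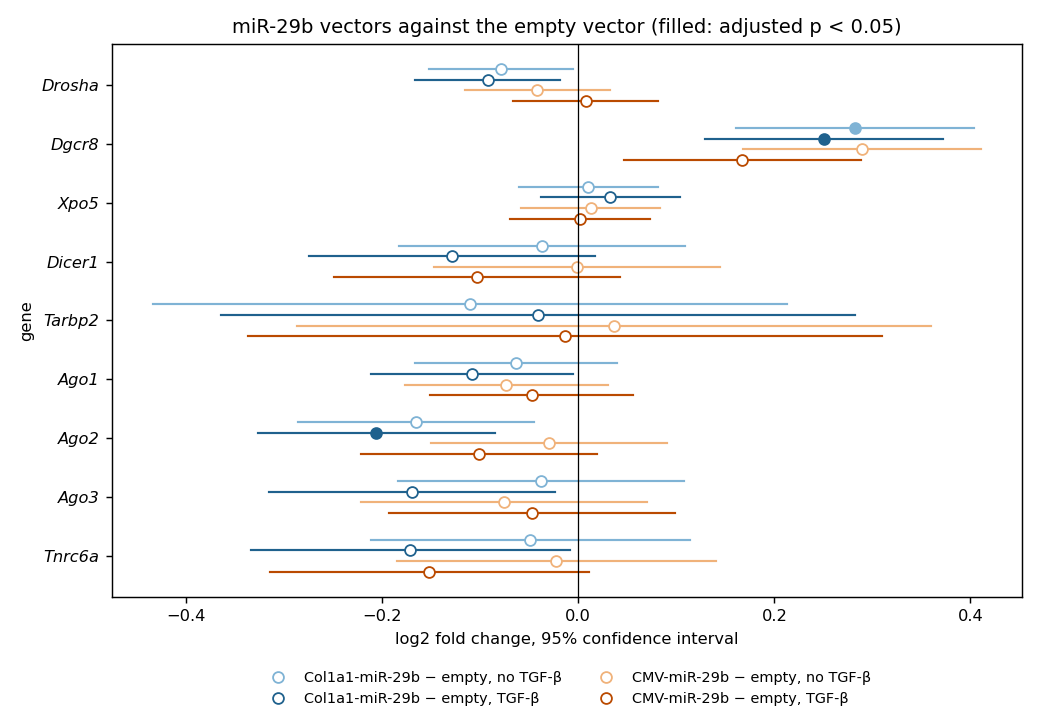
Log2 difference from empty vector with 95% confidence intervals for the 9 tested genes in 4 comparisons, with filled points where the adjusted p was below 0.05. Dgcr8 lies to the right of 0 in all 4 and is filled for Col1a1-miR-29b, and Ago2 is filled only for Col1a1-miR-29b with TGF-β.

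The members with a miR-29 seed match gave no decrease that passed the test. Dicer1 (0 of 4 vector comparisons), Ago3 (0 of 4), Ago1 (0 of 4) and Xpo5 (0 of 4) stayed short of the threshold, and the lowest of their differences was the -0.17 of Ago3 described above. Among all tested genes with a 3′ UTR model and an 8-letter match, the median difference was -0.05 with CMV-miR-29b and -0.07 with TGF-β, against 0.00 and -0.01 for genes with no match. For Col1a1-miR-29b these medians were -0.04 and -0.07, against -0.01 and -0.00. All are from the fit without offsets, and genes with and without a match were not matched for transcript length. The part of miR-29b in these medians was not tested. Dicer1 and Ago3 hold matches of 8 letters. Dicer1 gave -0.00 and -0.10 for CMV-miR-29b and -0.04 and -0.13 for Col1a1-miR-29b, and Ago3 gave -0.08 and -0.05, and -0.04 and -0.17.

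TGF-β itself moved no member past the threshold. This comparison asks whether the machinery shifts when fibroblasts are driven towards collagen synthesis. With empty vector 0 of 9 members passed where 5.88% of all genes did, with Col1a1-miR-29b 0 of 9 where 4.32% did, and for CMV-miR-29b 0 of 9 where 4.95% did. At unadjusted p below 0.05 the counts were 1, 0 and 0 (17.0%, 14.3% and 15.6% of all genes), and DESeq2 and limma also gave 0 in each. The log2 changes ran from -0.06 to 0.16 with empty vector, from -0.09 to 0.08 with the Col1a1 promoter and from -0.08 to 0.07 with the CMV promoter, and the confidence intervals of all 9 members lay within -0.41 to 0.36.

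By adjusted p, Tnrc6a in empty vector cells was the member nearest to a change with TGF-β. It measured 107.7, 88.8 and 95.9 CPM in empty vector libraries c, d and e and 103.1, 105.0 and 119.3 with TGF-β, so the groups overlapped, and its difference was 0.16 (0.00 to 0.33, adjusted p = 0.293). Dicer1 followed there at 0.14 (-0.00 to 0.29, adjusted p = 0.313), with 83.4 to 91.2 CPM against 72.7 to 81.7. Dgcr8 measured 54.8 to 57.2 CPM against 49.2 to 53.4. The share of all genes whose groups separate with TGF-β was not counted, so no response is read from such ranges. In CMV-miR-29b cells Xpo5 measured 184.7 to 195.3 CPM with TGF-β against 196.1 to 206.4 without it. Its difference was -0.07 (-0.14 to 0.00, adjusted p = 0.320). With the offsets for length and GC content Xpo5 passed in empty vector cells at -0.12 (adjusted p = 0.0207) and in CMV-miR-29b cells at -0.11 (adjusted p = 0.0393). Dgcr8 changed by 0.11 in empty vector cells, 0.08 for Col1a1-miR-29b and -0.02 for CMV-miR-29b, with adjusted p of 0.373, 0.654 and 0.954.

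**Figure D5:**
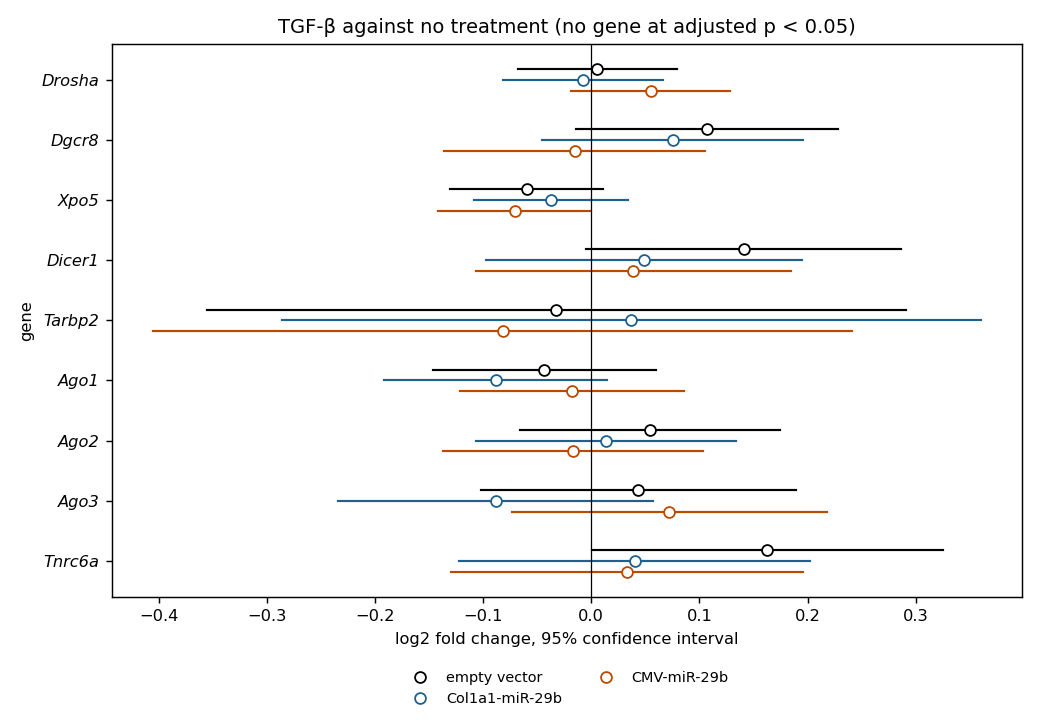
Log2 change with TGF-β and its 95% confidence interval for the 9 tested genes in cells with each of 3 vectors. No point is filled, since no adjusted p was below 0.05, and Tarbp2 has the widest intervals.

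The TGF-β response of the members was also compared between vectors, as the difference between the response with a miR-29b vector and that with empty vector. For both vectors 0 of 9 members passed, and so did 0% of all genes. No member had an unadjusted p below 0.05 (4.54% of all genes did for Col1a1-miR-29b and 5.34% for CMV-miR-29b), and DESeq2 and limma gave 0 members. Dgcr8 gave -0.03 (-0.20 to 0.14) for Col1a1-miR-29b and -0.12 (-0.29 to 0.05) for CMV-miR-29b. Between the miR-29b vectors, 0 of 9 members differed without TGF-β (1.81% of all genes did) and 0 of 9 with it (1.93%). There 1 member had an unadjusted p below 0.05 in each, as 16.4% and 15.6% of all genes did, namely Ago2 at 0.14 without TGF-β (adjusted p = 0.243) and Drosha at 0.10 with it (adjusted p = 0.156), both higher with CMV-miR-29b, and DESeq2 and limma gave 0.

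Partners of these genes also changed in Col1a1-miR-29b cells. Of 70 listed genes of the pathway, in lists of Microprocessor cofactors, export and turnover, Argonaute loading, and deadenylation and decay, 68 were tested. The lists were chosen with earlier results of these data known, so their counts are a description. With Col1a1-miR-29b 3 rose and 7 fell, where 2.57% of all genes rose and 3.70% fell, and with TGF-β 8 rose and 16 fell, where 5.31% rose and 7.63% fell. The list medians were -0.04 and -0.10, beside 0.02 and 0.02 for all genes. For CMV-miR-29b none passed in edgeR in either direction, and DESeq2 and limma also gave 0, with 2 of 68 at unadjusted p below 0.05 without TGF-β (5.46% of all genes) and 16 of 68 with it (12.0%).

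Among 13 Microprocessor cofactors, 2 rose and 1 fell without TGF-β, and 5 rose and 1 fell with it. Adar, an RNA-editing enzyme that interferon is known to induce, rose by 0.28 (adjusted p = 0.0088) and 0.24 with TGF-β (adjusted p = 0.00808). Hnrnpa1, an RNA-binding protein that helps the processing of certain primary transcripts, fell by 0.31 and by 0.42 with TGF-β (adjusted p = 0.0242 and 0.00243). Among the 12 tested genes of export, tailing and turnover, 2 fell without TGF-β and 4 with it. Tent2, a poly(A) polymerase that adds tails to microRNAs, fell by 0.31 (adjusted p = 0.0274), and Snd1, a nuclease found in silencing complexes, fell by 0.46 with TGF-β (adjusted p = 0.0243).

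Of 18 genes for Argonaute loading and the silencing complex, 2 fell without TGF-β, and 2 rose and 4 fell with it. Ajuba, a LIM protein that binds Argonaute, rose by 0.32 (adjusted p = 0.00234) and Mov10, a helicase that binds Argonaute, by 0.28 (adjusted p = 0.0233), both with TGF-β. The other GW182 genes are given because Tnrc6a is their relative, a choice made after their values were seen for Tnrc6b. Tnrc6c fell by 0.18 and, with TGF-β, by 0.23 (adjusted p = 0.0218 and 0.00305), and Tnrc6b fell by 0.32 with TGF-β (adjusted p = 0.0029). With the offsets for length and GC content the Tnrc6c values were -0.05 and -0.03 and that of Tnrc6b was -0.07, none passing.

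Between the miR-29b vectors 2 listed genes were higher with CMV-miR-29b, both without and with TGF-β. Tnrc6c was higher by 0.19 and 0.21 (adjusted p = 0.0392 and 0.0249), and Hsp90b1, an endoplasmic reticulum chaperone, by 0.21 and 0.18 (adjusted p = 0.0145 and 0.0318). With the offsets Tnrc6c gave 0.10 and 0.10 (adjusted p = 0.168 and 0.226) and no longer passed, while Hsp90b1 gave 0.22 and 0.17 (adjusted p = 0.00115 and 0.0088). By limma, with the replicate block or without the unlettered libraries, 0 listed genes passed between these vectors, while DESeq2 called 5 higher and 1 lower, and 3 higher and 4 lower with TGF-β. In these comparisons edgeR had 21 and 17 at unadjusted p below 0.05 (16.4% and 15.6% of all genes).

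In deadenylation, decapping and decay, 1 of 25 rose and 2 fell without TGF-β, and 1 rose and 7 fell with it. Cnot11, a CCR4-NOT subunit, rose by 0.25 and 0.22 (adjusted p = 0.00751 and 0.00559). With the offsets the counts over the 4 lists became 5 up and 5 down without TGF-β and 7 up and 6 down with it, of which 7 and 10 were among the genes passing without offsets. Without the unlettered libraries the counts were 1 up and 2 down, and 4 up and 9 down, by limma 3 up and 1 down, and 6 up and 5 down, and with the replicate block 0 up and 1 down, and 4 up and 8 down. With TGF-β, Zc3h12a, a ribonuclease that can cut precursor hairpins, was the 1 listed gene that passed in edgeR without offsets, rising by 0.37 with empty vector and 0.40 with Col1a1-miR-29b (adjusted p = 0.0031 and 0.00203). In CMV-miR-29b cells no listed gene passed for TGF-β in edgeR without offsets, DESeq2 or limma, with 10 of 68 at unadjusted p below 0.05 (15.6% of all genes). With the offsets Adar passed as lower with TGF-β in all 3 vectors, by -0.22, -0.22 and -0.20 (adjusted p = 0.00942, 0.0106 and 0.0171, for empty vector, Col1a1-miR-29b and CMV-miR-29b). The offsets also brought 1 further lower gene in CMV-miR-29b cells and, in Col1a1-miR-29b cells, Hsp90b1 at 0.12 (adjusted p = 0.0101), and DESeq2 called 1 lower gene in Col1a1-miR-29b cells.

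Interferon-induced genes were counted as well, and several rose in Col1a1-miR-29b cells. Of 16 listed, 9 rose in Col1a1-miR-29b cells without and 9 with TGF-β, where 2.57% and 5.31% of all genes rose. The list was chosen with earlier results of these data known, so these counts describe it and do not test it. Their medians were 0.40 and 0.41 (all genes 0.02 and 0.02), and under the offsets 9 and 7 rose. For CMV-miR-29b 0 passed by edgeR, DESeq2 or limma in either setting. There 6 and 1 had an unadjusted p below 0.05 (5.46% and 12.0% of all genes). Medians there were 0.16 and -0.03 (all genes 0.00 and -0.00). Between the miR-29b vectors, 5 of the 16 were lower with CMV-miR-29b without TGF-β and 8 with it, and 0 were higher in either. Of all 21161 genes, 170 and 193 were lower there. The TGF-β comparison called 9 of the 16 lower under the CMV promoter, where 395 of all 21161 genes were called lower. It called 2 lower with empty vector and 1 under the Col1a1 promoter, where 425 and 280 of all genes were called lower. Dgcr8 in CMV-miR-29b and Col1a1-miR-29b cells was at 63.3 ± 2.86 and 63.0 ± 4.79 CPM without TGF-β (SD, n = 3). With TGF-β it was at 62.6 ± 2.21 and 66.3 ± 0.716 CPM. Neither difference between these vectors passed in edgeR (adjusted p = 0.974 without and 0.541 with TGF-β). The part of the interferon-induced genes in the members' values was not tested.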

How the data were processed

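Poly(A) RNA of 18 MEF libraries, made with a stranded kit, was sequenced for the authors by a service company. The labels list cutadapt, FastQC, HISAT2 and StringTie, with no version, and build mm9, but 52506 of the 55450 rows carry the GRCm38 coordinates of GENCODE M21. The deposited count columns hold whole numbers of reads per gene, not normalized, and how reads were turned into counts is not given in the sources used here. The deposited FPKM columns were scaled by the authors and hold 0.0001 in place of 0. Among counts from 1 to 40, 33.8% to 36.7% were multiples of 4, so low counts are coarser than they look, and counts divided by 4 were tried. The 2 FPKM columns of the unlettered libraries were not used, their counts were.

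Counts were tested with edgeR 4.0.16 (filterByExpr, TMM, 1 mean for each of 6 groups, quasi-likelihood F test, R 4.3.3) and adjusted over all 21161 genes by the Benjamini-Hochberg method, and the scripts were tested on simulated data. CPM use TMM factors. Alternatives were DESeq2 1.42.0, limma 3.58.1 on log2(FPKM + 1) and log2(FPKM + 0.1), other scalings and filters, the groups compared alone, a replicate block and leaving out each library. The replicate block was fitted without the unlettered libraries. Offsets for length and GC content and the removal of both unlettered libraries with no block were added after the data were seen. DESeq2, the tool of the study, was thus an alternative here and edgeR the main test.

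Members and lists were chosen with earlier results of these data known. Every tested member was counted in every comparison. Values of single members are given against empty vector (for Tarbp2 only an interval), and for some members only in the other comparisons. Of the listed pathway genes, the 2 largest changes in each direction past the threshold are named. Replicates correlated at 0.993 to 0.994 on the log2(CPM + 1) scale and differed beyond counting noise, so none was counted as a repeat deposit. RefSeq sequences are from GRCm38.p6. Intervals and the limit of 3 counts cover what their models hold, the latter counting error only.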

Additional observations from a re-analysis of the deposited data

How the results depend on the processing

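With offsets for length and GC content the differences of Ago1 (0.038), Ago2 (0.022), Ago3 (0.094) and Tnrc6a (0.017) in Col1a1-miR-29b cells with TGF-β reversed, and 1 member (Xpo5) passed for TGF-β in empty vector and in CMV-miR-29b cells. The number of members passing with Col1a1-miR-29b, 1 without TGF-β, was 2 by DESeq2 and 0 with only the groups compared, by limma on log2(FPKM + 0.1) or without both unlettered libraries. It ranged from 0 to 1 when single libraries were left out. With TGF-β the number, 2, was 1 with only the groups compared, by limma with either pseudocount or without both unlettered libraries, and ranged from 1 to 2 over single libraries left out. With CMV-miR-29b it was 1 by DESeq2. Over 18 alternatives Dgcr8 ranged from 0.23 to 0.32 without TGF-β (12 past the threshold) and from 0.23 to 0.30 with it (17 past), and Ago2 with TGF-β from -0.25 to 0.02 (9 past). By CPM per kb, Ago1 took place 3 and Ago2 place 4, Tarbp2 place 8 and Ago3 place 9, and the Ago1 share was 46.35% and that of Ago2 41.32%.

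Replicate letters did not pair the libraries: deviations from group means correlated at 0.00669 on average for 36 same-letter pairs (-0.108 to 0.129) and at -0.0035 for 70 others. With the replicate block, which was fitted without the unlettered libraries, 0 members passed with Col1a1-miR-29b, either without or with TGF-β. Over all genes 161 and 1152 passed in that fit, beside 397 and 1659 when the same libraries were left out with no block.

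Over all genes, 1327 passed with Col1a1-miR-29b without TGF-β and 2738 with it. With only the groups compared these were 782 and 1072, by limma with a pseudocount of 1 481 and 1752 and with 0.1 390 and 1633, without the unlettered libraries 397 and 1659, and by DESeq2 2398 and 3537. Scaling by total counts moved the genes that rose from 1123 to 1469 of 2792 with TGF-β, from 543 to 679 of 1322 without it, and for TGF-β in empty vector cells from 820 of 1245 to 672 of 1265. The cause of these differences was not tested. Counts per gene limit Tarbp2 and Ago4 most.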
